A study of Camellia sinensis with 9 samples.

Results

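The transcripts described here are 45 reference transcripts of the tea plant, Camellia sinensis, that were abundant in both root and flower and low in leaf. The members were chosen from the deposited values themselves. A member is an assembled transcript that matches a reference transcript, at a locus with no other such match. It had at least 10 FPKM in every root and every flower library, its smallest root or flower value was at least 5 times its largest leaf value, and its root and flower means lay within 5-fold of each other. FPKM, the unit of the deposited values, counts sequenced fragments per length of transcript and per size of library. The table holds 109879 transcripts. Of these, 36951 match a reference transcript and 26178 are the sole match at their locus. The FPKM limit was met by 1839 of the sole matches, and 1580 of those also had root and flower means within 5-fold. The leaf limit left 45, or 2.85% of the 1580. The same thresholds gave 44 transcripts of flower and leaf that were low in root, and 24 of root and leaf that were low in flower. These counts use the deposited values without scaling. With every library scaled to an equal sum the 45 became 29, and the other counts were not recomputed, so nothing is read from their sizes. Because the rule used every library and all 3 comparisons of tissues, the levels of the members are given as a description without a test.

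Total RNA came from untreated root, flower and leaf tissue, as 9 libraries, 3 per tissue, and ribosomal RNA was removed before sequencing. The labels give no genotype, cultivar, plant age or stage of the organs, and no label ties a replicate to a plant of its own, so SDs and p-values describe how far these libraries differ and no more. The names used are those of the sample titles: root 13, root 23 and root 33, flower 1, flower 2 and flower 45, leaf 1 and leaf 41. The third leaf column is numbered 23, which is not the number of any leaf sample, and is called the unnumbered leaf library. Total counts are not part of the deposited table; the FPKM of a library sum to between 623826 (leaf 1) and 1250929 (flower 1). Each is a bulk sample of an organ with many cell types, so fewer cells of a type and less RNA per cell cannot be told apart. No identifier comes with a gene name or function in the deposited table, and 0 of them were found among the RefSeq genes of assembly ASM5576180v1. Members are therefore given by identifier, no role can be given for any of them, no gene list or tissue marker could be looked up to check the tissue labels, and no sequence is printed. Positions run along scaffolds that the table does not name.

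Mature leaves of a plant photosynthesize and export sugar, while roots and flowers live on imported sugar and are called sink organs. Roots take up water and mineral nutrients, and in the tea plant they are known as the main site of theanine synthesis. Flowers hold petals, stamens and carpels, and these carry reproductive and pigmented tissue. Genes used in both organs but little in leaf can belong to very different processes, and no member could be placed in one from these files.

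The members covered a wide range of abundance. Their mean over the 6 root and flower libraries ran from 15.8 to 748 FPKM, with a median of 62.7. The mean lay above 100 FPKM for 12 members, between 50 and 100 for 17, and under 50 for 16. In the 1535 transcripts that met the FPKM and 5-fold limits but not the leaf limit, used below as the comparison set, the median was 46.1 FPKM and 53.4% lay under 50. All 45 members together took 0.472% to 0.524% of the summed FPKM of a root library, 0.467% to 0.537% of a flower library, and 0.0245% to 0.0278% of a leaf library.

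**Figure D1:**
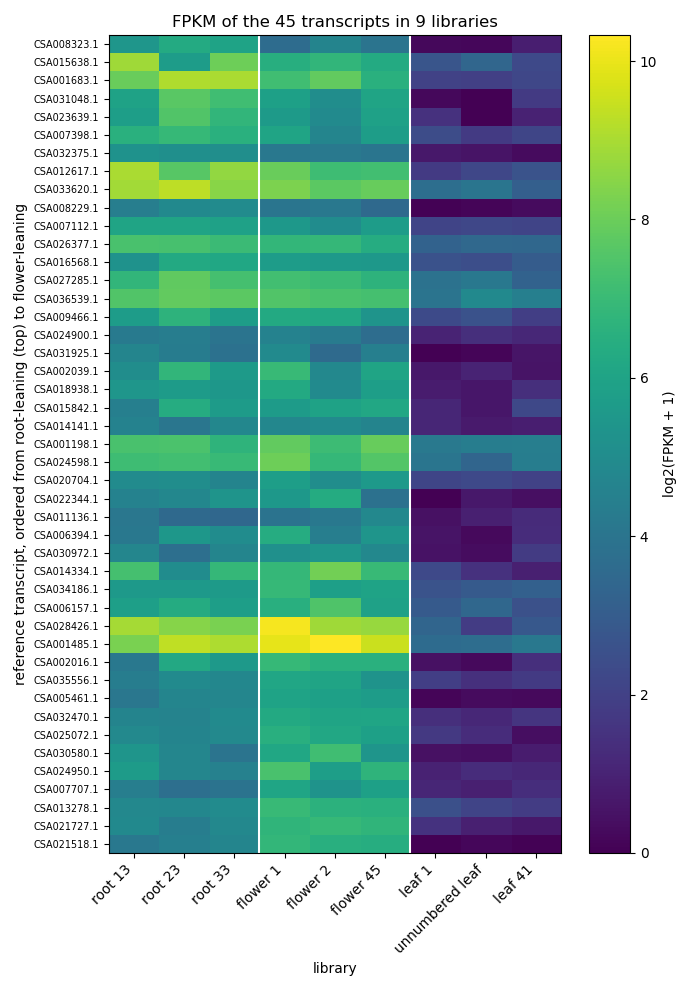
Levels of the 45 reference transcripts (rows, ordered by the ratio of their root and flower means, root-leaning at the top) in the 9 libraries (columns), as log2(FPKM + 1) by colour. In each row the 3 leaf columns are darker than the root and flower columns, as the selection requires, and flower means were the higher ones in 29 of the 45 rows.

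CSA001485.1 (locus MSTRG.11816, minus strand, positions 80204 to 81166) had the highest mean of the members. It stood at 304, 655 and 539 FPKM in root 13, 23 and 33, at 989.6, 1285 and 716 in flower 1, 2 and 45, and at 11.2, 11.8 and 16.4 in leaf 1, the unnumbered leaf library and leaf 41. Every flower library lay above every root library, and the leaf values, though low beside these, were above the limit of 10 FPKM asked of root and flower. CSA028426.1 (locus MSTRG.19034, minus strand, positions 334558 to 337707) came next. It stood at 489, 353 and 305 FPKM in the root libraries, 1161, 461 and 426 in the flower libraries and 9.19, 2.59 and 6.23 in the leaf libraries, in the same order. Flower 1 alone set its flower mean apart from root, since flower 2 and 45 lay within the range of root. The lowest means belonged to CSA011136.1 (locus MSTRG.4856, minus strand, positions 700706 to 703851), with root, flower and leaf means of 12.2 ± 3.25, 19.3 ± 6.72 and 0.907 ± 0.514 FPKM (SD, n = 3), and to CSA024900.1 (locus MSTRG.42138, minus strand, positions 21593 to 24260), with root, flower and leaf means of 17.4 ± 2.65, 17.8 ± 5.41 and 1.28 ± 0.292 FPKM (SD, n = 3). CSA011136.1 was also the member closest to the FPKM limit, with 10.1 FPKM in root 33. The transcript closest to that limit from below, CSA026397.1 (locus MSTRG.10522, minus strand, positions 119179 to 123261), had 9.63 FPKM in flower 45 and between 11.6 and 19.2 in the other root and flower libraries.

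The other members with a mean above 100 FPKM were CSA033620.1, CSA001683.1, CSA012617.1, CSA036539.1, CSA015638.1, CSA001198.1, CSA024598.1, CSA027285.1, CSA014334.1 and CSA026377.1. CSA033620.1 (locus MSTRG.36449, plus strand, positions 202673 to 203272) stood at 470.4, 623 and 359.7 FPKM in the root libraries, 310.4, 209 and 242 in the flower libraries and 12.4, 15.3 and 7.76 in the leaf libraries. CSA001683.1 (locus MSTRG.47195, plus strand, positions 40126 to 40752) stood at 249.6, 543 and 514 FPKM in the root libraries, 141, 232 and 93.6 in the flower libraries and 3.11, 2.87 and 3.55 in the leaf libraries. CSA012617.1 (locus MSTRG.14914, minus strand, positions 471721 to 473420) stood at 517, 197 and 407 FPKM in the root libraries, 248, 139 and 147 in the flower libraries and 2.41, 3.55 and 5.3 in the leaf libraries. All 3 had a higher mean in root than in flower, and every root library of CSA033620.1 and CSA001683.1 lay above every flower library. In CSA012617.1 root 23 lay below flower 1, so the tissues overlapped.

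Root and flower levels lay close in some members and well apart in others. Flower had the higher mean in 29 members and root in 16, and the means were within 2-fold of each other in 26. The 3 flower libraries all lay above the 3 root libraries in 13 members, and the reverse held in 9. The other 23 members overlapped. The 9 members with root wholly above flower were CSA033620.1, CSA001683.1, CSA036539.1, CSA026377.1, CSA007398.1, CSA007112.1, CSA008323.1, CSA032375.1 and CSA008229.1. The 13 with flower wholly above root were CSA001485.1, CSA002016.1, CSA024950.1, CSA021727.1, CSA013278.1, CSA034186.1, CSA021518.1, CSA025072.1, CSA032470.1, CSA035556.1, CSA005461.1, CSA007707.1 and CSA030972.1. Over all 55806 transcripts with at least 1 FPKM in at least 3 libraries, flower lay wholly above root in 28% and wholly below in 28.1%. In the comparison set these shares were 27.8% and 32.7%, against 28.9% and 20% of the members. The rule used this contrast through the 5-fold limit, so nothing is read from these counts. The median ratio of root to flower means was -0.48 on the log2 scale in the members and 0.09 in the comparison set.

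**Figure D2:**
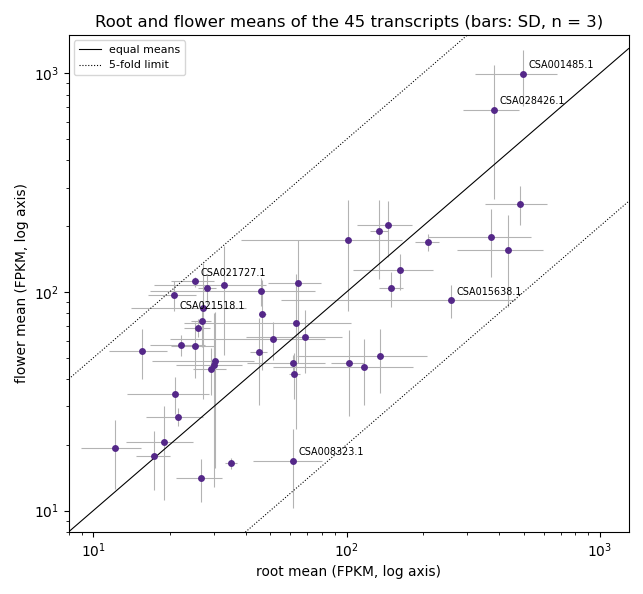
Mean FPKM in flower against mean FPKM in root for the 45 members, both axes logarithmic, with SD over 3 libraries as bars, a solid line at equal means and dotted lines at the 5-fold limit. CSA021518.1 and CSA021727.1 lie near the upper limit, and CSA008323.1 lies farthest toward root.

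The members that leaned most to flower were CSA021518.1 (locus MSTRG.47369, minus strand, positions 68 to 1298) and CSA021727.1 (locus MSTRG.13281, plus strand, positions 710798 to 712960). CSA021518.1 stood at 16.4, 21 and 25.3 FPKM in the root libraries and at 114, 91.4 and 85.8 in the flower libraries, a ratio of means of 4.65, so it was also the member just inside the 5-fold limit. CSA021727.1 stood at 28.7, 19.7 and 27 FPKM in root and at 108, 119 and 108 in flower, a ratio of 4.45. In both, the lowest flower library exceeded the highest root library by over 3-fold, and the flower libraries of CSA021727.1 were nearly equal. The transcript just outside the limit was CSA023481.1 (locus MSTRG.39536, plus strand, positions 37630 to 39039), at 57.9, 28.8 and 36.9 FPKM in root and 295, 178 and 231 in flower, a ratio of 5.69. Leaning most to root were CSA008323.1 (locus MSTRG.32331, plus strand, positions 67 to 3187) and CSA015638.1 (locus MSTRG.1770, minus strand, positions 257198 to 258404). CSA008323.1 stood at 42.5, 79.4 and 61.9 FPKM in root and 11.7, 24.4 and 14.6 in flower, a ratio of 3.63, with no overlap. CSA015638.1 stood at 458, 51.4 and 266 FPKM in root and 88.5, 109 and 77.8 in flower. Its root libraries spanned those of flower on both sides, so the ratio of means, 2.81, rests on root 13 and root 33.

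Leaf levels were low but seldom at zero. The median member stood at 1.85 FPKM in leaf 1, 1.5 in the unnumbered leaf library and 2.38 in leaf 41, against 40.8 to 49.2 in the root libraries and 59.5 to 76.4 in the flower libraries. In 22 members every leaf library had at least 1 FPKM, in 8 members none reached 1 FPKM, and in 8 the largest leaf value was at least 10 FPKM. The highest leaf mean belonged to CSA036539.1 (locus MSTRG.35933, plus strand, positions 141728 to 146341), a member whose root and flower means were within 2-fold. It stood at 185, 229 and 212 FPKM in root, 185, 165 and 156 in flower and 14.6, 28.9 and 20.8 in leaf. A value listed at 0 occurred in 4 members, in 2 of them in leaf 1 and in 2 in the unnumbered leaf library. Read from the steps between low values, 1 fragment of a 1000 nt transcript was worth 0.0385 to 0.0435 FPKM in leaf, and the limit set by 3 fragments, which is what a count of 0 allows, was 0.116 to 0.13 FPKM. In root and flower 1 fragment was worth 0.0559 to 0.0717 FPKM. These limits cover counting error only.

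The margin to leaf differed widely. The ratio of the smallest root or flower value to the largest leaf value had a median of 10.6, lay between 5 and 6 in 11 members and above 20 in 11. CSA021518.1 had the widest margin. Its leaf values were 0, 0.13 and 0.0427 FPKM in leaf 1, the unnumbered leaf library and leaf 41, which at this depth and span is no more than a few fragments, so no fold against leaf is given. CSA005461.1 (locus MSTRG.1187, minus strand, positions 1560234 to 1562988) came next, with 0.0882, 0.249 and 0.197 FPKM in leaf, 15.9, 25 and 25.6 in root and 63.4, 57.9 and 50.7 in flower. Every root and flower library of both stood far above leaf. At the other end, CSA030972.1 (locus MSTRG.53266, minus strand, positions 13546 to 14349) was just inside the leaf limit, with a smallest root or flower value of 12.5 FPKM in root 23 and a largest leaf value of 2.45 in leaf 41. CSA001198.1 (locus MSTRG.15368, plus strand, positions 90610 to 91264) was next, at 104 and 20.2 FPKM. Just outside the limit were CSA036587.1 (locus MSTRG.37199, plus strand, positions 140084 to 141202), with 33.5 and 6.8 FPKM, and CSA015961.1 (locus MSTRG.3949, minus strand, positions 1234704 to 1236021), with 234 and 49.1 FPKM. In both of these the largest leaf value was that of leaf 41.

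**Figure D3:**
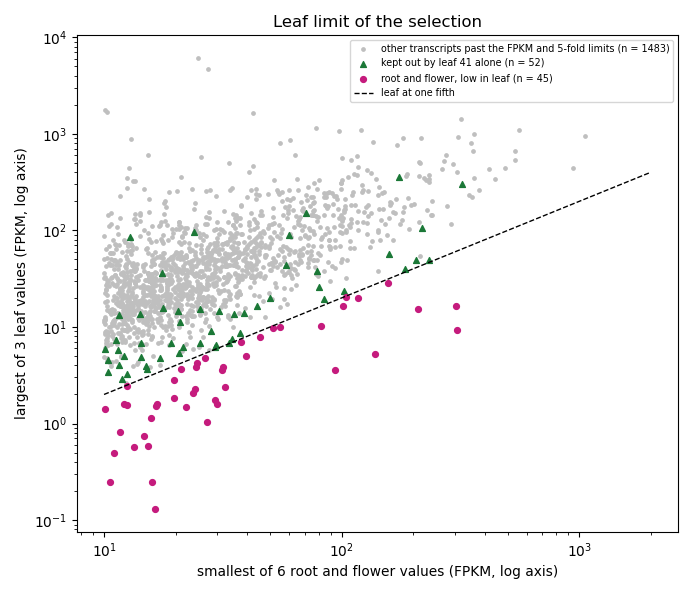
Largest of the 3 leaf values against the smallest of the 6 root and flower values, both in FPKM on logarithmic axes, for the 1580 transcripts past the FPKM and 5-fold limits. The 45 members lie on or under the dashed line, where leaf is at 1/5 of the smallest root or flower value, and 52 others (triangles) lie above it through leaf 41 alone.

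Leaf 41 decided the size of the set more than any other library. Over the 36342 loci with at least 1 FPKM in at least 3 libraries, leaf 41 had a Pearson correlation of log2(FPKM + 1) of 0.82 with leaf 1 and with the unnumbered leaf library, and the value between those was 0.97. Its correlation with the root libraries was 0.62 to 0.67, where theirs was 0.51 to 0.54. With the flower libraries the order was reversed, at 0.49 to 0.57 for leaf 41 and 0.54 to 0.63 for leaf 1 and the unnumbered leaf library. The points are loci, which do not replicate each other. With the rule applied to the other 8 libraries, 97 transcripts qualified, all 45 members among them. Leaving out a library can only loosen the leaf limit, and without a leaf library every member is bound to stay. Leaving out any other single library gave 48 to 67. Leaf 41 is the highest leaf library in all 52 transcripts gained without it by the rule itself, which uses the largest leaf value. Its median in them was 13.4 FPKM, where leaf 1 and the unnumbered leaf library had medians of 1.92 and 1.94. This gap is partly set by that sorting, so nothing is read from it. In 7 of the 52, leaf 41 was at least as high as the smallest root or flower value.

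The most abundant of these 52 was CSA024787.1 (locus MSTRG.36114, minus strand, positions 192845 to 196322). It stood at 1882, 1739 and 1604 FPKM in root, 735, 1153 and 320.2 in flower, and 9.41, 32.9 and 301 in leaf 1, the unnumbered leaf library and leaf 41. Its mean over root and flower was above that of every member. CSA003221.1 (locus MSTRG.13784, plus strand, positions 676626 to 676958) showed the widest gap between leaf libraries. It stood at 47.9, 12.8 and 28.5 FPKM in root, 29.5, 23.9 and 36.2 in flower and 1.16, 1.06 and 85.6 in leaf, so leaf 41 was higher than any root or flower library. These transcripts were picked out after their values were seen.

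Among the members themselves leaf 41 was the highest leaf library in 20 of 45 and the lowest in 13, against 33.6% and 51.7% of the comparison set. In the 29 members with a leaf mean of at least 1 FPKM, its ratio to the mean of the other leaf libraries had a median of 1.05, and 0.863 in the comparison set. The largest such ratios belonged to CSA030972.1, at 0.426, 0.275 and 2.45 FPKM in leaf 1, the unnumbered leaf library and leaf 41, and to CSA015842.1 (locus MSTRG.23023, plus strand, positions 497273 to 498550), at 1.17, 0.548 and 3.69 FPKM. The smallest belonged to CSA025072.1 (locus MSTRG.24211, plus strand, positions 216308 to 218638), at 2.26, 1.45 and 0.286 FPKM, and to CSA014334.1 (locus MSTRG.42690, minus strand, positions 29994 to 32015), at 3.88, 1.8 and 0.89 FPKM. The direction in which leaf 41 departed from the other leaf libraries was thus not the same for all members. The rule itself keeps out transcripts that are high in any leaf library.

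The spread between replicate libraries was, as a description, wider in the members than in the comparison set. Within root, the highest library exceeded the lowest by a median of 1.63-fold in the members and 1.39-fold in the comparison set, and by over 3-fold in 7 members (15.6%) against 3.06%. Within flower the medians were 1.78-fold and 1.53-fold, and 6 members (13.3%) exceeded 3-fold against 6.97%. Within leaf, where values are low, they were 2.06-fold and 1.73-fold. Root 23 was over 2-fold above root 13 in 10 members and over 2-fold below it in 4, so root 13 was not lower throughout. The comparison set had 7.30% and 1.5% in these classes.

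The largest spread within root was that of CSA015638.1, whose root 13 value was 8.91 times its root 23 value. CSA014334.1 shared this order, with 156, 31.8 and 118 FPKM in root 13, 23 and 33, and 116, 276 and 124 in the flower libraries. The opposite order, with root 23 highest and root 13 lowest, was held by several members, CSA002016.1 and CSA015842.1 among them. Root 23 was the highest root library in 22 of 45 members and in 59.2% of the comparison set. Root 13 was the lowest in 19 members and in 51.5% of that set. A pair of short transcripts with this order was picked out after their values were seen. CSA031048.1 (locus MSTRG.36485, plus strand, positions 21672 to 22354) stood at 61.3, 205 and 141 FPKM in root, 56.9, 32.4 and 63.9 in flower and 0.158, 0 and 2.38 in leaf. CSA023639.1 (locus MSTRG.49279, minus strand, positions 415 to 717) stood at 54.9, 186 and 109.8 FPKM in root, 48, 29.4 and 59.5 in flower and 1.76, 0 and 0.988 in leaf. The order of the root libraries is the same in both, as is that of the flower libraries, and flower overlapped root in both. Whether these transcripts share sequence, and so reads, was not tested. The widest spread within flower was that of CSA022344.1 (locus MSTRG.4137, plus strand, positions 696292 to 701494), at 45, 80.4 and 13.4 FPKM in flower 1, 2 and 45 against 23.1, 26.8 and 39.8 in root. By contrast, replicates lay close in both tissues for CSA032375.1 (locus MSTRG.28954, plus strand, positions 355860 to 356219), which stood at 35 ± 1.99 FPKM in root and 16.4 ± 0.971 in flower (SD, n = 3).

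The rule did not use the length or place of a transcript. The members were short in genomic span, with a median of 1700 nt and a range of 303 to 7886 nt, where the comparison set had a median of 3951 nt. A span under 1000 nt was found in 14 members (31.1%) and in 14.5% of the comparison set, and a span over 5000 nt in 5 members (11.1%) and 36.7%. Span includes introns, so it is not the transcript length that enters FPKM. The locus held a single transcript for 33 members (73.3%), against 59.5% in the comparison set. Strands were nearly balanced, with 21 members on plus and 24 on minus. Positions under 1000, at the start of a scaffold, were found for 3 members, CSA021518.1, CSA008323.1 and CSA023639.1, which is 6.67% against 2.28%. No member's locus had a number next to that of another member's (0 of 45). These are descriptions of 45 chosen transcripts, and no test was made on them.

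The 12 members at loci with further transcripts allow a look at values beside those that the rule used, though not independent of them. These loci held 18 other assembled transcripts. Of these, 15 were splice variants that share a junction with the reference (class code j) and 1 was coded as intergenic (code u). The other 2 (code e) were single-exon transcripts over a reference exon and part of an intron, a class that may be unspliced RNA. Differences were tested with limma on log2(FPKM + 1) over all 55806 transcripts with at least 1 FPKM in at least 3 libraries, and a transcript was called at a Benjamini-Hochberg adjusted p under 0.05 and a difference of at least 1. Of the 18, 13 passed the filter. MSTRG.2416.1 did so through root alone and MSTRG.26883.1 through flower alone, and each was called higher than leaf in that tissue. MSTRG.32331.1, MSTRG.43591.3 and MSTRG.43591.4 also had no leaf library at 1 FPKM or more, so they passed only through root or flower libraries. In root against leaf, 10 of the 13 were called higher and 0 lower. The background was 17.5% higher and 13.4% lower over all tested transcripts, and 15.8% higher over the 15221 transcripts other than the reference at loci with 1 reference transcript. None of the 13 was lower in root at an unadjusted limma p under 0.05 (0). In flower against leaf, 11 of the 13 were called higher and 0 lower, with 0 lower at an unadjusted limma p under 0.05. The background was 17.3% higher and 14% lower, and 16.9% higher over the other transcripts of such loci. With no filter all 18 were tested, and 10 were called higher in each comparison with leaf. Both comparisons use the same leaf libraries, and some of the 13 share a locus. Because reads of exons shared with the reference are divided by estimation, a level above leaf is partly set by the selection. Nothing is therefore read from these counts against the background.

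In flower against root, 1 of the 13 was called higher and 2 lower, against 20.1% and 20.7% of all tested transcripts. Without root 23 the count of 3 was 1, and without root 33 it was also 1. The transcripts of a locus are not independent of the reference transcript, because reads of shared exons are divided between them by estimation. The median difference of the 13 was 2.62 in root minus leaf and 2.62 in flower minus leaf, where all tested transcripts had medians of -0.01 and -0.02. These medians too are partly set by the selection and the filter, so nothing is read from them against the background.

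**Figure D4:**
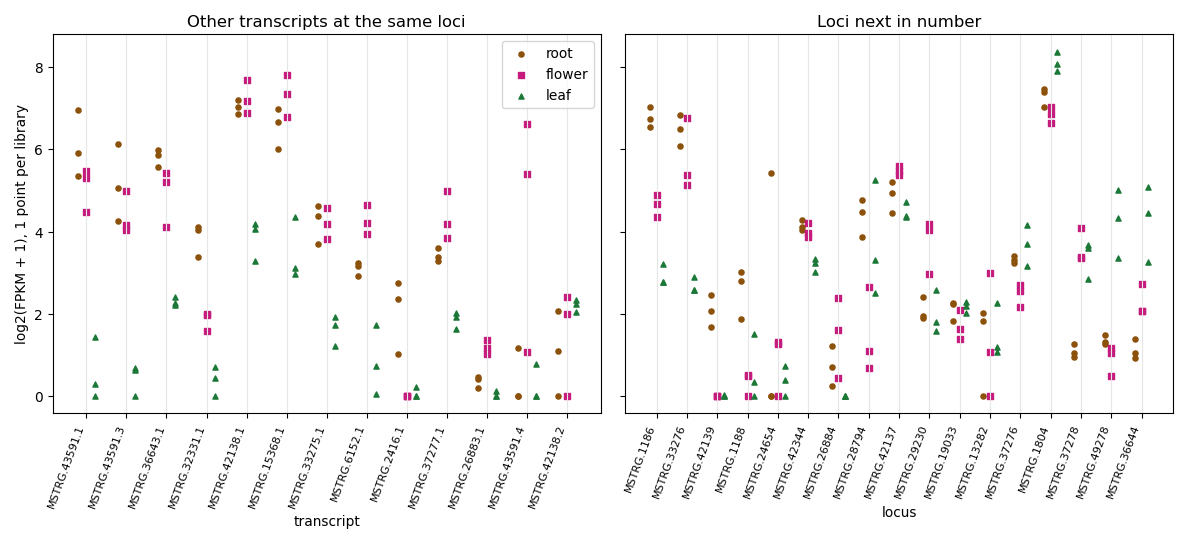
log2(FPKM + 1) in each library (1 point per library; circles root, squares flower, triangles leaf) of the 13 tested transcripts other than the reference at members' loci (left), and of the 17 tested loci next in number to a member's locus (right), each ordered by the difference of root and leaf. On the left, 10 transcripts were called higher in root than in leaf and 0 lower, and on the right, 4 loci were called higher and 3 lower.

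Ranked by the smaller of the root and flower differences, the largest excess over leaf belonged to splice variants at the locus of CSA002039.1 (locus MSTRG.43591, minus strand, positions 223018 to 224229), which held 6 transcripts. MSTRG.43591.1 (positions 192008 to 224239) stood at 40, 124 and 59.4 FPKM in root, 38.7, 43.1 and 21.3 in flower and near 0, 0.222 and 1.71 in leaf. It differed from leaf by 5.5 ± 0.52 (SE) in root (limma adjusted p = 8.20e-05) and by 4.51 ± 0.52 in flower (limma adjusted p = 2.20e-04). MSTRG.43591.3 (positions 192008 to 224212) differed by 4.71 ± 0.48 (limma adjusted p = 1.34e-04) and 3.96 ± 0.48 (limma adjusted p = 3.16e-04). No root or flower library overlapped leaf in either variant. The reference transcript itself stood at 32.8, 109 and 47.9 FPKM in root, 123, 27.2 and 65.2 in flower and 0.602, 1.04 and 0.477 in leaf, and made up 34.9% ± 0.64 of the locus in root and 39.5% ± 7.77 in flower (SD, n = 3). A further variant, MSTRG.43591.4, stood at 97.7, 1.09 and 41.6 FPKM in flower 1, 2 and 45 and at no more than 1.26 in any root or leaf library. It was called higher in flower than in root, with a difference of 3.98 ± 1.18 (limma adjusted p = 0.0225). This was the 1 higher call in flower against root, and it was lost (0 higher) with no filter on low values, without flower 1, without root 23 and without root 33. With a filter at 5 FPKM it could not be tested, as too few of its libraries reached that level. The 1 higher call in that setting was of another transcript. The flower libraries of MSTRG.43591.4 differ more from each other than flower 2 does from root.

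At the locus of CSA024900.1, one of the least abundant members, the reference transcript was a minor product. Its share of the locus FPKM was 11.8% ± 2.68 for root, 10.2% ± 1.23 for flower and 6.98% ± 1.23 for leaf (SD, n = 3). The splice variant MSTRG.42138.1 (positions 15949 to 24260) stood at 129, 116 and 147 FPKM in root, 204, 143 and 117 in flower and 8.72, 15.7 and 17.3 in leaf. It differed from leaf by 3.19 ± 0.32 in root (limma adjusted p = 1.26e-04) and by 3.40 ± 0.32 in flower (limma adjusted p = 8.35e-05). A second variant, MSTRG.42138.2, stood at near 0, 3.19 and 1.14 FPKM in root, 2.99, near 0 and 4.31 in flower and 3.13, 4.03 and 3.69 in leaf, and was called in neither comparison with leaf. This locus therefore ran at well over the level of its member, and its transcripts did not all share the member's pattern.

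MSTRG.15368.1, at the locus of CSA001198.1, reached a level like that of MSTRG.42138.1. This single-exon transcript (code e, positions 90517 to 91313) spans the whole reference transcript. Whether it is unspliced RNA of the member was not tested. MSTRG.15368.1 stood at 100.5, 125 and 63.4 FPKM in root, 222, 110.1 and 162 in flower and 6.85, 7.62 and 19.3 in leaf. It differed from leaf by 3.07 ± 0.44 in root (limma adjusted p = 8.02e-04). Its value in leaf 41 was the highest of the leaf libraries. The variant of CSA008323.1, MSTRG.32331.1, leaned to root as its reference transcript did. It stood at 9.38, 16.3 and 15.5 FPKM in root and 2.92, 3.02 and 2.0 in flower, a difference of flower and root of -1.99 ± 0.33 (limma adjusted p = 0.00112). MSTRG.2416.1, at the locus of CSA035556.1, was found in root, at 1.05, 5.72 and 4.12 FPKM, and was at or near 0 in every flower library, although its reference transcript had a higher mean in flower than in root. The difference of flower and root was -2.05 ± 0.39 (limma adjusted p = 0.00258).

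Loci beside the members were called higher than leaf in 23.5% of cases in root and 23.5% in flower, overlapping loci included. A locus was taken as a neighbour when its number was next to that of a member's locus, its positions followed in the same order and it lay within 20 kb. This gave 25 loci beside 22 members, of which 17 passed the filter on the sum of their transcripts. In root against leaf, 4 of the 17 were called higher and 3 lower (limma, 36342 loci tested), where the background was 19.8% and 15.5%. In flower against leaf, 4 were called higher and 5 lower, where the background was 20.3% and 17.3%. In flower against root, 2 were called higher and 4 lower, where the background was 21.8% and 22.5%. Of the 17, 8 overlapped or directly abutted the member's locus, and those that overlap may share reads with it. MSTRG.42344 only abuts, ending at position 51156 where the locus of CSA013278.1 starts at 51157. The 8 loci held 3 of the 4 called higher in flower than in leaf and 1 of the 4 called higher in root. Among the 9 that neither overlapped nor abutted, 3 were called higher and 1 lower in root than in leaf. In flower than in leaf, 1 of these 9 was called higher and 3 lower. As the scaffold is not named, a locus next in number may lie on another scaffold. MSTRG.49278, next to the locus of CSA023639.1, overlaps it in position and is nevertheless coded as intergenic, so that pair is doubtful.

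A few neighbours stood out by their values. MSTRG.33276 (positions 234796 to 235301, minus strand) is an antisense transcript over the end of CSA027285.1 (locus MSTRG.33275, plus strand, positions 232233 to 235035). It stood at 66.8, 113 and 88.9 FPKM in root, 40.7, 107 and 34.4 in flower and 5.0, 6.44 and 5.0 in leaf, and differed from leaf by 3.78 ± 0.41 in root (limma adjusted p = 1.30e-04) and 3.07 ± 0.41 in flower (limma adjusted p = 3.70e-04). CSA027285.1 itself stood at 111, 223 and 155 FPKM in root, 148, 130.0 and 101 in flower and 13.9, 16.5 and 8.59 in leaf. Whether counting used the strand is unknown, so reads of the antisense transcript and of the member may not have been told apart. MSTRG.1186, an annotated locus 3985 nt from CSA005461.1 on the same strand, was also higher in both tissues than in leaf. It stood at 106, 129 and 91.5 FPKM in root, 24.3, 28.4 and 19.6 in flower and 5.84, 5.82 and 8.25 in leaf, with a difference of flower and root of -2.13 ± 0.24 (limma adjusted p = 1.11e-04). CSA005461.1 leaned to flower, so the neighbours differed in which tissue was highest. In the other direction, MSTRG.1804, an annotated locus 7405 nt from CSA024598.1 (locus MSTRG.1803, minus strand, positions 6876 to 7532) on the same strand, had root, flower and leaf means of 158 ± 25.2, 114 ± 15.4 and 280.0 ± 46.4 FPKM (SD, n = 3). It was called lower in flower than in leaf, with a difference of -1.28 ± 0.25 (limma adjusted p = 0.00307), while CSA024598.1 stood at 138, 144 and 122 FPKM in root, 266, 117 and 186 in flower and 14.9, 9.25 and 20 in leaf. These neighbours were picked out after their values were seen.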

How the data were processed

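Ribosomal RNA was removed from TRIzol-extracted RNA, per the labels' protocols. Per the submitters' processing notes, HISAT2, StringTie and Cuffnorm were used. Their versions, the genome build and any use of strand were not given in the sources used here. Deposited values are the authors' FPKM per transcript and library, with class codes against a reference annotation. The header names no unit: FPKM is taken from Cuffnorm and the values. Columns were matched to samples by title, 1 leaf column only to its group; 0 columns of per-sample values were left unused. The members and lists were chosen with earlier results of these data known. Differences were fitted with limma 3.58.1 (R 4.3.3) with a variance trend, a mean for each tissue and 6 residual degrees of freedom over 9 libraries, on log2(FPKM + 1), which understates changes of low values, and checked on simulated data. Locus values are sums of transcripts. Named by rule were the 2 members highest and 2 lowest in mean, 2 with the widest margin to leaf, 2 leaning most to root and 2 to flower, 2 with the largest and 2 with the smallest leaf 41 ratio, those beside each threshold, and the 2 other transcripts with the largest excess over leaf, by the smaller of their root and flower differences. The remaining named transcripts and loci were chosen after their values were seen. Depth was read from single-exon loci of 600 to 3000 nt: after a length correction of 194 to 210 nt, 100% of values between 1.5 and 10 fragments lay within 0.05 of a whole number. Fragments of spliced transcripts cannot be read this way, and no count model was fitted. Alternatives changed thresholds, scaling, filter, pseudocount, weights and libraries.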

Additional observations from a re-analysis of the deposited data

How the results depend on the processing

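The number of members depends on the rule's thresholds, on the scaling of the libraries and on 1 library. It was 87 with leaf at up to 1/3 of the smallest root or flower value and 24 at 1/10, 69 with an FPKM limit of 5 and 28 with 20, and 26 with means within 2-fold. With no limit on the ratio of the means it was 55. Scaling every library to an equal sum, which raises leaf because its summed FPKM were lowest, left 29, all of them members. Quantile normalization left 35, with 34 members among them, and locus sums gave 55, with 43. The 2 members lost with locus sums were CSA001198.1 and CSA006157.1. Of the 12 transcripts gained, 9 were under 10 FPKM in every root and flower library, so their loci qualified through other transcripts. Leaving out 1 library, which can only loosen the leaf limit, gave 48 to 97, the highest without leaf 41. The other transcripts at members' loci called in root against leaf numbered 8 to 10 and in flower against leaf 9 to 11 under the alternatives run. Between 9 (filter at 5 FPKM) and 18 (no filter) of these transcripts were tested. In flower against root their count of 3 became 6 with array weights and 1 to 4 with a library left out, 1 without root 23 and 1 without root 33. Its single higher call became 0 in both of these, without flower 1 (where a further lower call kept the sum at 3) and with no filter. With a filter at 5 FPKM the transcript behind that call, MSTRG.43591.4, was not tested, and the 1 higher call was of another transcript. The counts for neighbouring loci stayed within 1.5 times the reported ones, between 5 and 9 for root against leaf, 6 and 10 for flower against leaf and 4 and 9 for flower against root. MSTRG.43591.1 and MSTRG.43591.3 stayed higher than leaf, with limma adjusted p-values from 1.8e-06 to 0.0027, in all 60 values recomputed for them. Where counts moved, the cause was not tested beyond what the thresholds themselves set. No paired analysis was possible because no pair of tissues has over 1 replicate number in common among the columns: flower and leaf have 1, root and leaf have 23, which is the number of no leaf title, and root and flower have none. The titles of a flower and a leaf sample also have the number 2, but no leaf column carries it. Depth limits leaf values near 0.116 to 0.13 FPKM at 1000 nt.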
